A study of Mus musculus with 28 samples.

Results

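FoxA1 binding was followed with an antibody against FoxA1 itself at 0, 6, 12, 24 and 48 h after doxycycline (Dox) removal in mouse embryonic stem (ES) cells. The members are every binding event of the 5 lists deposited for the anti-FoxA1 time titration, 85306 of the 162571 events in the 14 lists of FoxA1, FoxC1, FoxL2 and FoxP3. The 0 h list held 15 events, the 6 h list 86, the 12 h list 8345, the 24 h list 35134 and the 48 h list 41726. Each event is a position of 1 bp on mm10 with a score given by the authors. An event was called present at another time point when that list held an event within 100 bp, absent when it did not, gained when it was absent at the previous time point and lost when it was absent at the next.

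All 5 groups were MC1 ES cells (129S6/SvEvTac) that carry a FoxA1 transgene with a C-terminal His6-FLAG tag and a puromycin resistance gene at the Rosa26 locus, repressed while Dox is present. Cells were washed free of Dox, moved to differentiation medium with serum for the stated hours and fixed with formaldehyde, so time after transgene release and time in differentiation medium cannot be told apart. The 0 h group carried the same transgene. The assay was ChIP-exo, in which an exonuclease trims the precipitated DNA back to the crosslinked protein. There was 1 library per time point, so no difference between time points has a replicate check and no p-value is given. The intervals printed are Wilson 95% intervals and cover counting error over events only. The lists hold no reads, so depth is unknown, and the lists carry no RNA values by which the cells could be checked against markers.

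FoxA1 is a Forkhead transcription factor whose winged-helix domain resembles a linker histone. It is known as a pioneer factor that can bind sites on nucleosomes before other factors do, acts with FoxA2 in endoderm and liver, and directs hormone receptors to their sites in breast and prostate epithelium. Forkhead proteins commonly recognise TGTTTAC and close relatives of it. ES cells are normally kept in the pluripotent state by Pou5f1, Sox2, Nanog and their partners.

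Sequence could be read for events in promoters. Promoter windows came from RefSeq (GRCm38.p6, the mm10 assembly) and run from 250 bases before to 50 after a gene's start. The 11 windows printed here were chosen after their values were seen, to show strong early sites, signalling and epithelial genes, and sites without a match. Each runs 5′ to 3′ on the gene's strand and covers 61 bases centred on the 48 h event, which lies 48 to 217 bases before the RefSeq start. Trmt13, Pml, Etv5, Spdef and Tdgf1 lie on the minus strand and the others on the plus strand. Capitals mark a heptamer on either strand. The motifs searched were TGTTTAC (the same as GTAAACA on the other strand), its variant TATTTAC (read there as GTAAATA) and its variant TGTTTGC (read there as GCAAACA), none of which can hold another.
Trmt13: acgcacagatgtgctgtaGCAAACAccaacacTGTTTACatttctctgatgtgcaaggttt
Rptn: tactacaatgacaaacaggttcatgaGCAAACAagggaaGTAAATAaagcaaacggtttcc
Pml: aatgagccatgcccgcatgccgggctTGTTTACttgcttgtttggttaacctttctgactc
Stard10: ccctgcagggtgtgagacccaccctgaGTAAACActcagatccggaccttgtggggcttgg
Prps1: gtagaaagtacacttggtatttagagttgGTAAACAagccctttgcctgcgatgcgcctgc
Dusp6: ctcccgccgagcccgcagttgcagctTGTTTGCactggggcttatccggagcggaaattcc
Etv5: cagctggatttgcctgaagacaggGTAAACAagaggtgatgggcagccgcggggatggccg
Pim1: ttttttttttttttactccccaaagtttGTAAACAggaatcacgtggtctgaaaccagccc
Spdef: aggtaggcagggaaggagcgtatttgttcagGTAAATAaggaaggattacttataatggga
Agr2: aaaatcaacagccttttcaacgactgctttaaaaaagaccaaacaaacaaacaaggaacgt
Tdgf1: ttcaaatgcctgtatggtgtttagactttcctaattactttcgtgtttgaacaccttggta

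Trmt13, a tRNA methyltransferase gene, had an event at the centre of chr3:116614735-116614795 with scores of 440 at 12 h, 1000 at 24 h and 1000 at 48 h. Rptn, the gene of the epidermal matrix protein repetin, had scores of 301, 876 and 1000 at the same times at chr3:93393489-93393549. Both windows hold 2 matches. Neither site had an event at 0 h or 6 h, and both were in the anti-FLAG lists at all 3 later times.

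Pml, which encodes the scaffold of nuclear bodies, had scores of 268, 403 and 317 at 12, 24 and 48 h at chr9:58249891-58249951. Stard10, a lipid transfer protein gene, had 415, 626 and 655 at chr7:101316863-101316923. Prps1, a nucleotide synthesis enzyme gene on chromosome X, had 106, 229 and 467 at chrX:140456356-140456416. Each of these 3 windows holds a single match, centred 0 to 2 bp from the 48 h event. The Pml and Stard10 sites were in the anti-FLAG lists of 12, 24 and 48 h, and the Prps1 site in those of 24 h and 48 h.

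Dusp6, a phosphatase that restrains ERK, had scores of 53, 163 and 233 at chr10:99263025-99263085. Etv5, an ETS factor downstream of FGF signalling, had 46, 156 and 266 at chr16:22439717-22439777. Pim1, a kinase gene that LIF and STAT3 induce, had 45, 175 and 122 at chr17:29492987-29493047. The 12 h scores of these signalling genes were close to the lowest of that list, 43. Spdef, a transcription factor of secretory epithelium, was without an event here at 12 h and had 98 at 24 h and 193 at 48 h at chr17:27728969-27729029. The anti-FLAG lists held the Dusp6 site at 24 h alone and the Spdef site at 48 h alone. They held the Etv5 and Pim1 sites at no time.

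Agr2, a secretory-pathway gene of mucous epithelia, had scores of 115, 461 and 1000 at chr12:35992715-35992775. Tdgf1, the gene of the Nodal co-receptor Cripto, had 51, 113 and 194 at chr9:110946323-110946383. Neither window holds any of the 3 heptamers, which says only that these letters are not there. The anti-FLAG lists held the Agr2 site at 24 h and 48 h and the Tdgf1 site at 24 h alone.

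Over all promoters, 11.2% of the 32817 windows hold at least 1 of the 3 heptamers. The share was 61.9% (52.4 to 70.6) among the 105 windows with an event at 12 h. It was 56.3% (51.8 to 60.7) of 467 windows at 24 h and 53.2% (49.2 to 57.1) of 600 windows at 48 h. Promoters with an event at 48 h and none at 24 h held a match in 43.0% (37.0 to 49.3) of 244 windows. Median GC content ranged from 53% to 54.2% across these 4 sets, against 52.7% for all windows.

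Around the events themselves, a match lay within the 61 bases in 56.2% of 89 promoter events at 12 h, 45.8% of 378 at 24 h and 45.6% of 467 at 48 h. Windows of the same length at every position of all promoters held one in 2.25%. Of the 24 h promoter events found again at 48 h, 48.8% (43.1 to 54.5, n = 289) held a match, against 36.0% (26.8 to 46.3, n = 89) of those absent at 48 h, and these intervals overlap. Of the 48 h promoter events, 50.2% (44.4 to 56.0, n = 283) of those already in the 24 h list held a match, against 38.6% (31.9 to 45.8, n = 184) of the gained ones.

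The median distance from an event to the centre of its nearest match was 3 bp in the 12 h list, 2 bp in the 24 h list and 1 bp in the 48 h list. The share of such events within 3 bp was 58%, 63.6% and 82.6%. The caller named in the lists, ChExMix, can use DNA motifs when it places events, and the sources used here do not say whether it did. The match around an event is therefore not independent of the calling.

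**Figure D1:**
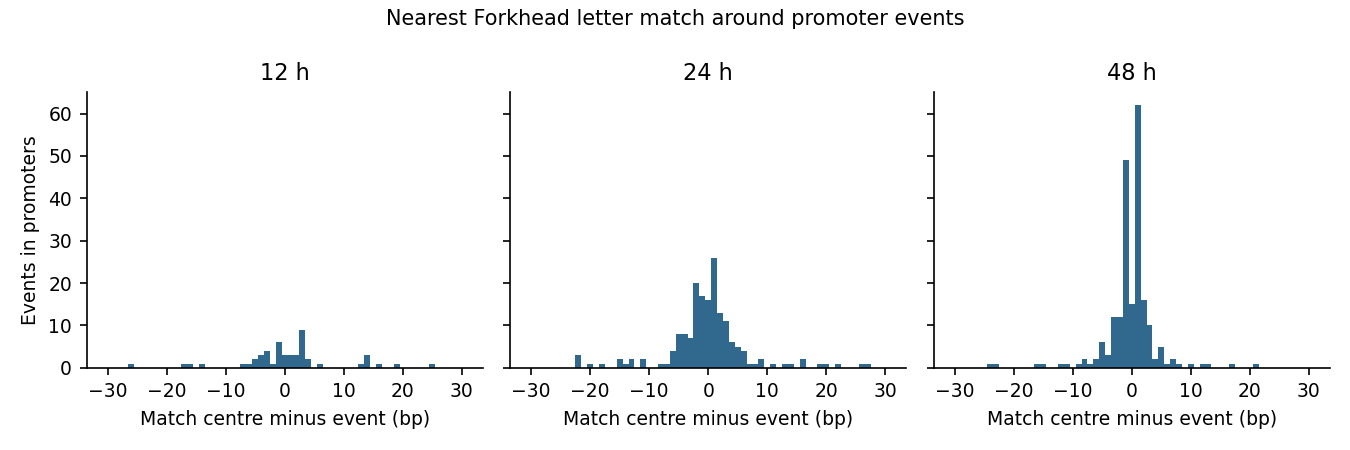
Promoter events at 12, 24 and 48 h whose surrounding 61 bases hold a Forkhead heptamer, counted by the distance in bp from the event (0) to the centre of the nearest match on the gene's strand. The events gather around 0 at each time, and at 48 h 82.6% of them lie within 3 bp.

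The course began with few events, and nearly every early position was found again. All 15 events of 0 h were in the 12 h and 24 h lists and 14 were in the 48 h list, although 6 were in the 6 h list. The 9 positions without an event at 6 h therefore all had one again at 12 h. Of the 86 events at 6 h, 85 were present in the 12 h list, 85 in the 24 h list and 82 in the 48 h list.

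The 0 h events did not match those seen with anti-FLAG. No 0 h event lay within 100 bp of an anti-FLAG event of 0 h, a list of 20 events of which 18 were mitochondrial. At 24 h, 12 of the 15 positions were in the anti-FLAG list, and at 48 h 8. Of the 6 h positions, 3 were in the anti-FLAG list of 6 h, 66 in that of 12 h, 79 in that of 24 h and 72 in that of 48 h. The median score of the 6 h positions was 442 in the 12 h list and 851 in the 24 h list, against medians of 74 and 86 over those whole lists. The sources used here do not give the scale of the score, which has a ceiling of 1000, so scores of different lists are set side by side and not compared.

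Foxd3, a Forkhead repressor active in ES cells, was the nearest gene to a position at chromosome 4, 99641917, with an event at all 5 times. That event lay 14382 bp from the gene and had scores of 51, 200, 1000, 1000 and 1000 from 0 h to 48 h. Mycn, a Myc family gene that supports ES cell growth, was nearest to another such position, 125725 bp away. Its scores were 57, 106, 277, 146 and 61 in the same order. The position nearest Atf7ip, a partner of the H3K9 methyltransferase SETDB1, had scores of 280, 206, 648, 174 and 959. Only 6 of 51083 sites, made by joining events of the 5 lists within 100 bp, had an event at all 5 times.

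Single positions of 0 h lay nearest to Foxn2, Rbpj, Lpp and Sp3 among others. Rbpj is the DNA-binding effector of Notch, and the event 117952 bp from it had scores of 59, 218, 468 and 664 at 0, 12, 24 and 48 h and no event at 6 h. Lpp, a focal adhesion protein gene, had 51, 476, 1000 and 1000 at a position 46272 bp away. Sp3, a zinc-finger activator, had 50, 424, 1000 and 811 at 186683 bp. The position nearest Glrx3, an iron handling protein gene, was the exception at 48 h, with 52, 110 and 64 at 0, 12 and 24 h and no event at 48 h.

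The highest score at 6 h, 232, lay inside Dnaic1, which encodes a dynein chain of motile cilia, a known Forkhead-regulated class of genes. The position had a score of 1000 at 12, 24 and 48 h. Stab2, a scavenger receptor of liver sinusoids, held the next score of 231 inside the gene, then 566 at 12 h and 1000 at 24 h and 48 h. Hs3st3b1, a heparan sulfate sulfotransferase gene, was nearest to another position, with 216 at 6 h and 1000 afterwards. The events inside Msrb3 (194), near Cox10 (184), inside Cep57l1 (166) and inside Kcnd3 (156) all reached 1000 by 24 h. None of these positions had an event at 0 h.

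The step from 12 h to 24 h was mostly addition. Of the 24 h events, 77.4% (77.0 to 77.9), or 27211, had no event at 12 h, while 899 of the 8345 events of 12 h were absent at 24 h. The step from 24 h to 48 h added 16441 events, 39.4% (38.9 to 39.9) of the 48 h list, and lost 9827 events, 28.0% (27.5 to 28.4) of the 24 h list. Joined into sites, 6769 of 51083 (13.3%) had events at 12, 24 and 48 h, 17752 at 24 h and 48 h but not 12 h, and 16002 at 48 h alone. A further 9150 sites had an event at 24 h alone of these 3 times, 569 at 12 h alone, 540 at 12 h and 24 h and not 48 h, and 301 at 12 h and 48 h and not 24 h.

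**Figure D2:**
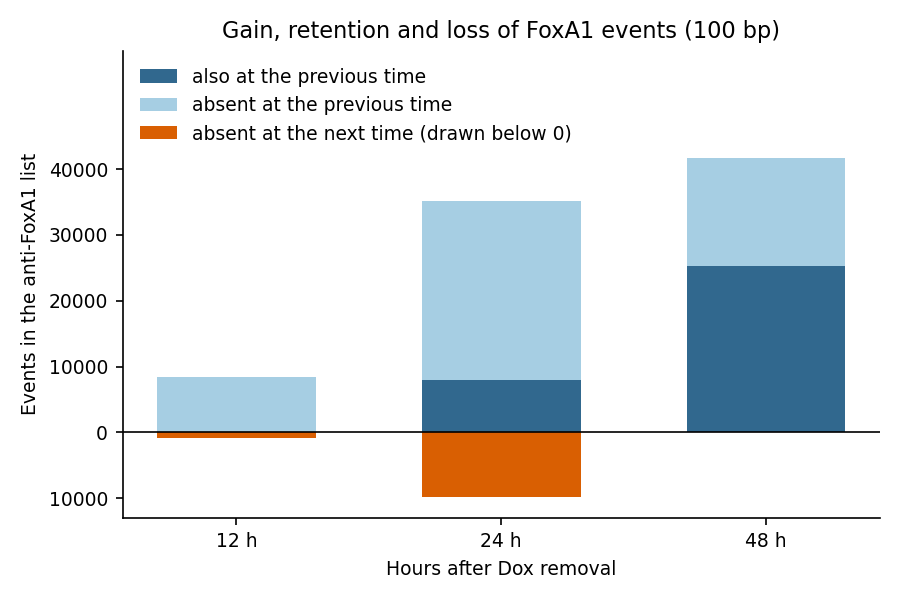
Events in the anti-FoxA1 lists of 12, 24 and 48 h, split into events present and absent at the previous time, with the events absent at the next time drawn below 0. Of the 35134 events at 24 h, 27211 had none at 12 h and 9827 had none at 48 h. Of the 41726 events at 48 h, 16441 had none at 24 h.

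The lists differ in length, which sets how many events can be found again. With all events, retention was 89.2% for the 12 h events and 72.0% for the 24 h events. With each later list shortened to its highest scores, 8402 events at 24 h and 8387 at 48 h, the shares were 55.9% and 70.9%, so the order of the steps turned. In the shortened lists 41.7% of 24 h events were gained and 28.9% of 48 h events, so the 24 h list kept the larger gained share.

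Matched events lay close together. The median offset was 6 bp from 12 h to 24 h and 5 bp from 24 h to 48 h, and 10.7% of the 24 h events found again at 48 h sat on the same base. The distance to an event of the earlier list was also measured. Of those gained at 48 h, 49.8% lay within 10 kb of a 24 h event and 83.4% within 50 kb, with a median distance of 10.1 kb. For those gained at 24 h the share within 10 kb of one of the far fewer 12 h events was 21.9% and the median distance 54.4 kb. The 24 h events lost by 48 h lay within 10 kb of a 48 h event in 58.0% of cases. Neighbouring events of one list were a median of 20.0 kb apart at 24 h and 16.8 kb at 48 h. Such a gap is another measure than the distance to the nearest event, so the values are not compared.

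Retention followed the score in both steps. In the lowest score quartile of the 12 h list, 75.7% (73.9 to 77.5) of events were found again at 24 h, and in the highest 98.7% (98.1 to 99.1). For 24 h events at 48 h the shares rose from 45.0% (44.0 to 46.0) through 64.7% and 84.8% to 95.7% (95.3 to 96.1). Of the 347 events at the score ceiling at 24 h, 346 were present at 48 h. Lost 24 h events had a median score of 55 and retained ones 112, within a list that starts at 43.

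Gained events made up a smaller share of the higher score quartiles. In the highest quartile of the 48 h list, 95.1% of events were already in the 24 h list, against 28.1% in the lowest. In the 24 h list 57.5% of the highest quartile were already in the 12 h list and 3.94% of the lowest. At 48 h the gained events had a median score of 62 and those already present at 24 h 133.

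**Figure D3:**
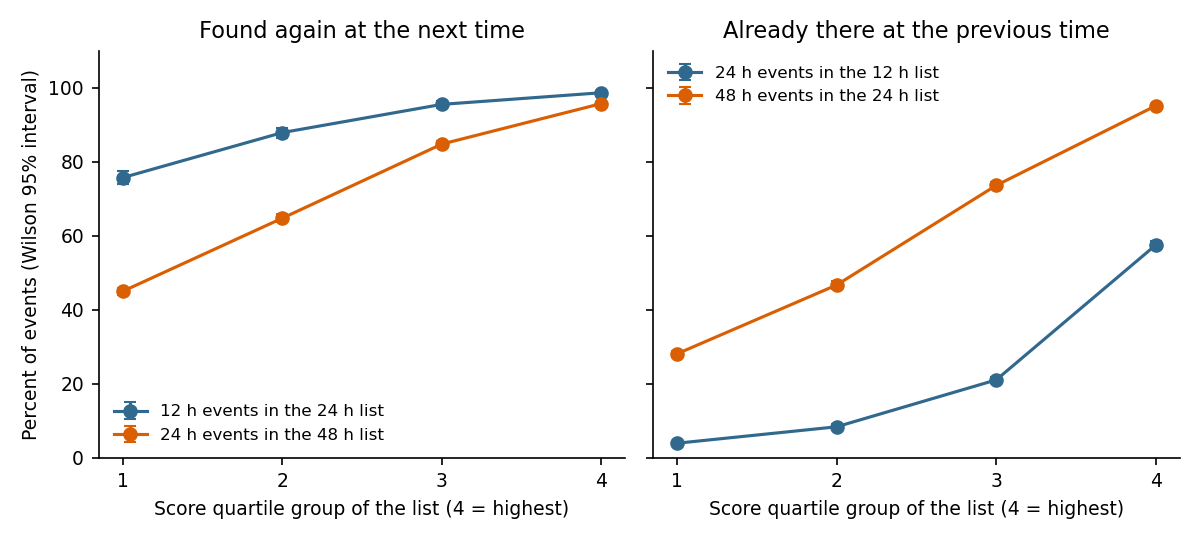
Percent of events found again at the next time (left) and already there at the previous time (right), by score quartile of the list the events come from; points are shares and bars Wilson 95% intervals. For 24 h events the share found again at 48 h goes from 45.0% in the lowest quartile to 95.7% in the highest.

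The anti-FLAG course, made with the antibody against the tag from the same line and times, gives separate libraries in which to look at the same positions. The anti-FLAG list of 24 h held 51.2% (50.6 to 51.8) of the 24 h anti-FoxA1 events that were found again at 48 h and 13.1% (12.4 to 13.8) of those that were not. A list that names FoxA1 and no time, taken to combine the 24 h libraries outside the time course, held 63.0% of the first and 25.4% of the second. Among 24 h events present at both 12 h and 48 h the anti-FLAG 24 h share was 78.1%, and among those seen at 24 h alone 11.5%.

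The gap stood within each score quartile. In the lowest, 14.8% (13.8 to 15.9) of retained and 6.30% (5.68 to 6.99) of lost events were in the anti-FLAG 24 h list. In the highest the shares were 86.0% (85.2 to 86.7) and 52.8% (47.7 to 57.8). At 48 h, 44.9% of the events already in the 24 h list and 9.72% of the gained events were in the anti-FLAG 48 h list. In the highest quartile of the 48 h list these shares were 79.9% (79.1 to 80.7) and 57.1% (52.8 to 61.4), and in the lowest 7.41% (6.53 to 8.40) and 3.36% (2.98 to 3.79).

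**Figure D4:**
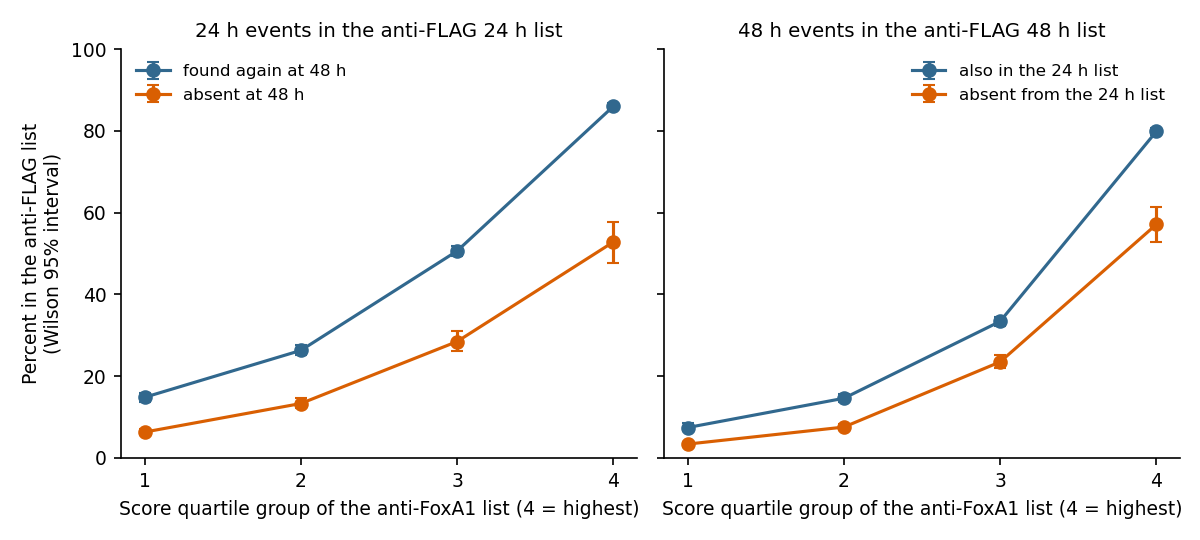
Percent of anti-FoxA1 events that lie within 100 bp of an anti-FLAG event of the same time, by score quartile, for 24 h events found again or absent at 48 h (left) and 48 h events present in or absent from the 24 h list (right); bars are Wilson 95% intervals. In every quartile the events shared between the times have the higher share, for example 86.0% against 52.8% in the highest quartile at 24 h.

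The lost positions were also rarely seen with anti-FLAG at 48 h. Of the lost 24 h events that the anti-FLAG 24 h list held, 22.2% (20.0 to 24.5, n = 1285) were in the anti-FLAG 48 h list, against 71.7% (70.9 to 72.4, n = 12959) of the retained ones. The anti-FLAG events of 24 h were looked up in the anti-FoxA1 48 h list as well. It held 66.7% of the 6190 that were absent from the anti-FLAG 48 h list and 95.8% of the 9794 that were present there. The anti-FoxA1 48 h list is much the longer, so these shares are not compared with the 22.2% and 71.7%. Of the gained 48 h events, 26.5% (25.8 to 27.2) lay at an event of the anti-FLAG 24 h list or the combined list. The anti-FLAG 24 h list held 6.54% and the combined list 22.6%, against 51.05% and 62.9% of the 48 h events already present at 24 h. A share of the gained positions was thus called in other libraries that are labelled 24 h or, for the combined list, taken to be of 24 h. The anti-FLAG list shortened from 15984 events at 24 h to 13899 at 48 h, while the anti-FoxA1 list lengthened from 35134 to 41726.

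Most events lay away from gene starts at each time. Events within 1 kb of a gene start made up 2.42% (2.12 to 2.78) of the 12 h list, 2.85% (2.68 to 3.03) at 24 h and 3.14% (2.98 to 3.31) at 48 h. Events inside a protein-coding gene made up 46.8%, 50.7% and 52.7%. Gained 48 h events lay within 1 kb of a start in 3.48% (3.21 to 3.77) of cases, and those already present at 24 h in 2.92% (2.72 to 3.13). Of the lost 24 h events 19.4% lay beyond 50 kb from any protein-coding gene, against 15.8% of the retained ones. Chromosome X held 1.22%, 1.76% and 1.46% of events at 12, 24 and 48 h, below its 4.41% of protein-coding genes at each time. Chromosome Y held 2, 16 and 6 events. The share of genes is a loose reference for events that mostly lie away from gene starts. The number of X copies in the cells was not tested.

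Genes were counted as near FoxA1 when an event lay inside them or within 50 kb of either end. Of 21887 protein-coding genes, 8276 (37.8%) had an event at 12 h, 16268 (74.3%) at 24 h and 16930 (77.4%) at 48 h. From 12 h to 24 h, 8084 genes (36.9%) went from none to at least 1 event and 92 had none left. From 24 h to 48 h, 1398 genes (6.39%) went from none at 24 h to at least 1 event and 736 (3.36%) had none left, of which 617 had had a single event. The number of events rose in 9474 genes and fell in 3727 between 24 h and 48 h.

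Gene counts followed the lengths of the lists. With the lists shortened to their highest scores, 8107 genes (37.0%) had an event at 24 h and 8379 (38.3%) at 48 h, close to the 8276 of 12 h. The gene lists used below, of 20 genes each besides the Forkhead and Hox families, were put together from textbook knowledge with earlier results of these data known, and are read against these shares for all genes. Their named members follow the rule on the number of events, except Pou5f1, Nanog, Sox2, Cebpa, Tcl1, Nr0b1 and Krt8, which were picked after their values were seen.

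Pluripotency genes were near FoxA1 early. Of the 20 genes, 17 (85%) had an event at 12 h, 19 at 24 h and 18 at 48 h, against 37.8%, 74.3% and 77.4% of all genes. The shortened lists held an event near 17 of the 20 at 24 h and at 48 h as well, against 37.0% and 38.3%. Their median number of events was 2 at 12 h, 8 at 24 h and 8.5 at 48 h, where all genes had medians of 0, 2 and 2. As a share of the whole list their events made up 0.743% (0.580 to 0.951) at 12 h, 0.507% (0.438 to 0.586) at 24 h and 0.451% (0.391 to 0.520) at 48 h. The intervals of neighbouring times overlap while those of 12 h and 48 h do not. They take events as independent and cannot test a change between single libraries. The events were bunched, and of the 62 at 12 h Klf5 had 11, Esrrb 10 and Prdm14 9.

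Esrrb, an orphan nuclear receptor of the naive state, had 10 events at 12 h, 25 at 24 h and 26 at 48 h. Of its 25 events at 24 h, 15 were gained and 8 were lost by 48 h, when 9 were gained. Prdm14, a repressor of differentiation genes and of DNA methylation, had 9, 23 and 21 events. Klf5, a Kruppel-like factor of self-renewal, had 11, 18 and 16, and Sall4, a zinc-finger factor bound with Pou5f1, had 2, 10 and 13. At 24 h, 15 of the 23 events at Prdm14 and 8 of the 18 at Klf5 were gained. Pou5f1 itself had 5, 8 and 8 events, with none lost and none gained after 24 h. Nanog had 2, 8 and 6 and Sox2 1, 5 and 5. Tcl1, a coactivator of Akt, had 1, 4 and 0 events and was the member that had none left at 48 h, and Nr0b1 had no event at any time.

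Endoderm regulators stood near the share of all genes at 12 h. Of the 20 genes, 8 (40%) had an event at 12 h, against 37.8% of all genes, 19 (95%) at 24 h and all 20 at 48 h. The 12 h count depended on the window and was 5 with 20 kb and 14 with 100 kb. In the shortened lists 9 had one at 24 h and 10 at 48 h, against the 37.0% and 38.3% of all genes. Gata4, a zinc-finger factor of heart and gut endoderm, had 1 event at 12 h, 11 at 24 h and 16 at 48 h. Gata6, which drives primitive endoderm, had 0, 5 and 6. Dab2, an endocytic adaptor of visceral endoderm, had 1, 9 and 7.

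The FoxA genes themselves stood at or above the medians of all genes, which were 0, 2 and 2 events at 12, 24 and 48 h. Foxa1 (chromosome 12, 57540628 to 57548029) had 0, 2 and 2 events, and both events of 24 h were lost while the 2 of 48 h were new. Foxa2 had 0, 3 and 4 and Foxa3 1, 4 and 5. No anti-FLAG event lay within 50 kb of Foxa1 or Foxa3 at these times. The Rosa26 locus, where the transgene sits, had 0 events at 0 h and 6 h and 1, 3 and 3 at 12, 24 and 48 h, the nearest 15492 bp away at 48 h.

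Liver genes had an event near 9, 17 and 17 of 20 at 12, 24 and 48 h. Fgb and Fga, neighbouring fibrinogen chain genes that share events, had 1, 4 and 10 and 1, 5 and 10 events. Apoa1, the main protein of HDL, had 1, 5 and 10. Each of these 3 genes had more events at 48 h than at 24 h. They were named for their number of events at 48 h, which favours such a rise. The anti-FLAG counts at 24 h and 48 h were 5 and 5 at Fgb, 4 and 5 at Fga and 4 and 3 at Apoa1. Over all 20 liver genes the median number of events was 0, 3 and 4 at 12, 24 and 48 h. Cebpa, a bZIP factor of hepatocytes and fat cells, had 0 events at 12 h and 24 h and 6 at 48 h. Its anti-FLAG counts were 0, 0 and 1.

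Epithelial and hormone-response genes had an event near 11, 17 and 17 of 20. Cdh1, the gene of E-cadherin, had 2, 22 and 24 events. Greb1, an estrogen-receptor target, had 5, 10 and 15 and Spdef 1, 11 and 10. The keratin genes Krt18 and Krt8, which pair in simple epithelia and lie side by side, had 0, 2 and 8 and 0, 1 and 6. By count the keratin pair had most of its events at 48 h, and Cdh1 most by 24 h. Krt18 was named for its 48 h count, and the windows of the pair overlap. The 8 events near Krt18 at 48 h had scores of 44 to 87, in a list that starts at 43 and has a median of 89. Near each of the pair the anti-FLAG lists held 1 event at 24 h and 0 at 48 h.

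**Figure D5:**
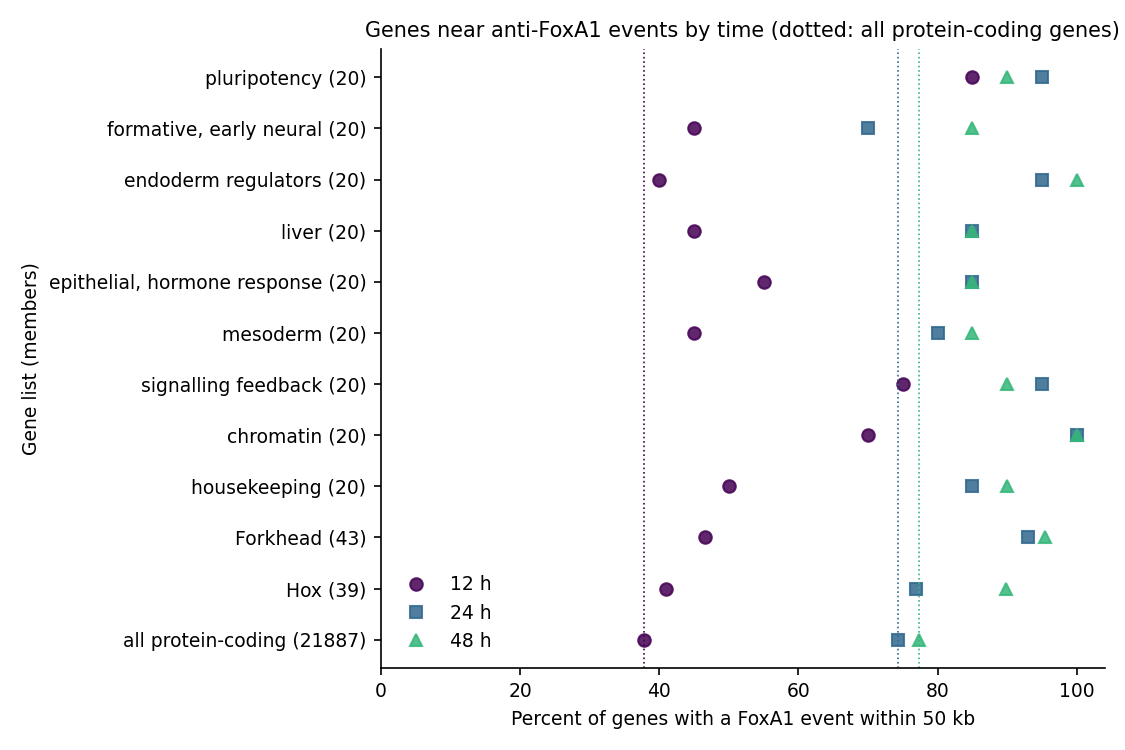
Percent of the genes in each list with a FoxA1 event within 50 kb at 12, 24 and 48 h; the number of genes stands beside each name and dotted lines mark the share of all protein-coding genes (37.8%, 74.3% and 77.4%). Pluripotency genes stand at 85% at 12 h and endoderm regulators at 40%.

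Formative and early neural genes had an event near 9, 14 and 17 of 20, with 5 gained by 24 h and 3 by 48 h. Otx2, a homeobox factor of the formative state and forebrain, had 6, 16 and 16 events. Zic2 and Zic5, neighbouring zinc-finger genes that share events, had 1, 4 and 10 and 2, 5 and 12. In the anti-FLAG lists Zic2 had 0, 6 and 2 and Zic5 0, 7 and 2, a fall after 24 h. Meis2, a TALE homeobox gene, had 1, 6 and 7 anti-FoxA1 events. Mesoderm genes had an event near 9, 16 and 17 of 20. Cdx2, a caudal factor, had 2, 5 and 4 and Tbx6, a T-box factor of presomitic mesoderm, 0, 6 and 4, and neither rose from 24 h to 48 h.

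Feedback genes of signalling pathways had an event near 15 (75%), 19 and 18 of 20. Smad7, the inhibitor of TGF-beta receptors, had 5, 16 and 13 events and Dusp6 3, 13 and 10. Spred2, an inhibitor of Ras signalling, had 1, 10 and 17, and Lefty1, a Nodal antagonist, 1, 7 and 11. Members of the list thus went both ways after 24 h in the anti-FoxA1 lists. The anti-FLAG counts at 24 h and 48 h were 6 and 5 at Smad7 and 9 and 5 at Dusp6. At Spred2 they were 5 and 4 and at Lefty1 6 and 4, so all of these fell.

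Chromatin genes had an event near 14, 20 and 20 of 20. Their median length was 58.6 kb against 17.2 kb for all genes, and a longer gene has a longer window. Jarid2, a Polycomb partner, had 13, 27 and 26 events and Zmynd8, a reader of acetylated histones, 7, 24 and 29. Housekeeping genes had an event near 10, 17 and 18 of 20, with Actb at 2, 8 and 7 and Ywhaz at 5, 12 and 14. At 12 h the 10 housekeeping genes stood beside 8 endoderm regulators and 9 liver genes.

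Forkhead genes had an event near 20 of 43 (46.5%) at 12 h, 40 at 24 h and 41 at 48 h. Foxp1, a repressor, had 9, 28 and 38 events over a gene of 597 kb, and Foxn3, a checkpoint gene, 9, 23 and 25 over 374 kb. Foxj1, the regulator of motile cilia, spans 4.80 kb and had 2, 10 and 12. The Hox genes, which set position along the body axis, had an event near 16 of 39 (41.0%), 30 and 35. Their windows overlap, so these counts rest on 6 separate events at 12 h, 14 at 24 h and 19 at 48 h. Without an event at 48 h were Hoxb3, Hoxb4, Hoxb5 and Hoxd1.

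The genes with the most events were mostly long. Etl4 (900 kb), a notochord gene, had 11 events at 12 h, 36 at 24 h and 45 at 48 h, and no gene had more at 24 h or 48 h. Magi1 (608 kb), a junction scaffold, had 8, 35 and 44, with 29 gained by 24 h, 14 lost after it and 23 gained by 48 h. Msi2 (379 kb), an RNA-binding protein gene, had 8, 34 and 41. After 24 h, Etl4 had 5 events lost and 14 gained, and Msi2 had 7 lost and 15 gained. Calls were thus both lost and gained at each of these genes while their totals rose. Whether binding itself changed was not tested.

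At 12 h the order was different. Zfp97 and Zfp960, neighbouring zinc-finger genes on chromosome 17, had 16 and 13 events at 12 h, 18 and 20 at 24 h and 15 and 14 at 48 h. They and Gm21119, on chromosome 8 with 12, 19 and 21 events, carry zinc-finger or unnamed gene models that may have close copies, between which reads could be split, and the sources used here do not say how such reads were treated. Mycn, in contrast a gene of 5.74 kb, had 11, 17 and 20 events.

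Many events were also gained after 24 h at single genes. Clmn (102 kb), which encodes calmin, went from 7 events at 12 h to 18 at 24 h and 33 at 48 h, of which 17 were gained. Zfp704 had 6, 19 and 32, with 17 of the last gained, and Tiam1, a Rac activator, 6, 21 and 33, with 16 gained. In the anti-FLAG lists of 12, 24 and 48 h, Clmn had 0, 8 and 8 events. Zfp704 had 1, 13 and 6 there and Tiam1 1, 14 and 11. None of these anti-FLAG counts rose after 24 h. In the anti-FoxA1 lists Dlgap1, a postsynaptic scaffold, went in the other direction, with 13 of its 29 events at 24 h lost and 10 gained. Tcf7l1, a repressor of Wnt targets that limits pluripotency genes, went from 5 events at 12 h to 32 at 24 h, of which 27 were gained, and to 28 at 48 h. Its anti-FLAG counts were 0, 14 and 9. Aff1, a subunit of the super elongation complex, went from 10 to 28 and 24, with 11 lost after 24 h. In the anti-FLAG lists Aff1 had 6, 15 and 10 events and Dlgap1 0, 9 and 10.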

How the data were processed

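The submitters' processing notes name BWA 0.7.17-r1188, Picard, SAMtools and the mm10 build for the ChIP-exo reads. Per the file headers, ChExMix made the event calls. Each deposited event carries a score from 43 to 1000. The sources used here do not give its scale, the caller's settings and controls, or a blacklist. An empty-control library was not analysed here, and some items of the series are not reported here.

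Positions were used as deposited. Overlap within 100 bp, genes within 50 kb (RefSeq annotation, GRCm38.p6) and Wilson 95% intervals were computed with Python 3.11.15, numpy 2.4.6, pandas 2.3.3 and scipy 1.17.1. The overlap and gene counts were tested on simulated data. Sites join events within 100 bp of a neighbour. Score quartiles are ranks within a list, with ties kept together. Gene starts came from the RefSeq promoter table and cover 17492 protein-coding genes. Named genes were up to 4 per list with the most events at 48 h, the 10 genes with the most events at each of 12, 24 and 48 h, the 5 with the most gained or lost, genes nearest the early events, the FoxA genes and Rosa26. The members and lists were chosen with earlier results of these data known. Replicates could not be compared, since each time point has 1 library. Alternatives were other distances and windows, higher scores alone, autosomes alone, lists of equal length and lists without events near 0 h events.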

Additional observations from a re-analysis of the deposited data

Results flagged for a closer look

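The 2 FoxA1 courses moved in opposite directions between 24 h and 48 h. The anti-FoxA1 list held 1.19 times as many events at 48 h as at 24 h (41726 against 35134), and the anti-FLAG list 0.87 times as many (13899 against 15984). There was 1 library per antibody and time point, so this difference was not tested. Of the 6190 anti-FLAG events of 24 h that were absent from the anti-FLAG 48 h list, 66.7% had an anti-FoxA1 event at 48 h. Of the 9794 that were present there, 95.8% had one.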

How the results depend on the processing

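Leaving out chromosomes X and Y or the positions near 0 h events moved none of the 6 shares of events beyond its counting interval. With a distance of 50 bp, retention from 12 h to 24 h (the first step) was 80.3% and from 24 h to 48 h (the second) 66%, and the gained share 80.6% at 24 h and 44.5% at 48 h; the anti-FLAG 24 h list held 46% of retained and 13.4% of lost 24 h events. With 200 bp, retention was 92.1% in the first step and 75.7% in the second, and the gained share 75.6% at 24 h and 36.3% at 48 h; the anti-FLAG 24 h list held 54% of retained and 12.3% of lost 24 h events. With a shared base, retention was 6.05% in the first step and 7.71% in the second, and the gained share 98.6% at 24 h and 93.5% at 48 h; the anti-FLAG 24 h list held 7.34% of retained and 2.37% of lost 24 h events. With scores at or above each list's median, retention was 92.2% in the first step and 76.8% in the second, and the gained share 75.6% at 24 h and 35.5% at 48 h; the anti-FLAG 24 h list held 52.1% of retained and 15.2% of lost 24 h events. With lists of equal length, retention was 55.9% in the first step and 70.9% in the second, and the gained share 41.7% at 24 h and 28.9% at 48 h. With a shared base retention no longer fell from the first step to the second, and lists of equal length turned that order as well. With equal length the 12 h list stayed whole and the later lists kept high scores alone, so the 2 steps followed unlike events. The cause was not tested. In each setting run, the anti-FLAG 24 h list held a larger share of retained than of lost events. Genes near an event at 12 h numbered 5305 with a window of 20 kb and 5204 with scores at or above the median, and with lists of equal length 8107 at 24 h and 8379 at 48 h; the other gene totals stayed within 1.5 times of those reported. Of 33 counts of list members at the 3 times, 27 stayed within 1.5 times with 20 kb and 31 with 100 kb. Beyond it with 20 kb were the 12 h counts of endoderm regulators (5), liver (4), housekeeping (3) and Hox genes (10) and the 24 h counts of housekeeping (11) and Hox genes (16), and with 100 kb the 12 h counts of endoderm regulators (14) and mesoderm genes (16). These are windows that were chosen for these lists after seeing the data, as were the shortened lists for them. No paired analysis was possible because each time point has 1 library and no test was run. Depth is unknown, so no share can be given for a matched depth.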
